A study of Macaca mulatta with 6 samples.

Results

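Annexins and their S100 partners were measured in the rhesus macaque line RF/6A, labelled as choroidal endothelial, after exposure to human serum with active complement. The genes were chosen by symbol, as ANXA1, ANXA2, ANXA3, ANXA4, ANXA5, ANXA6, ANXA7, ANXA11, S100A10 and S100A11. All 10 were found among the 24932 genes of the deposited table, as 24 of its 44605 transcripts, and all 10 passed the filter of a mean of at least 1 FPKM. One set of cells received 50% normal human serum for 4 hours, in which complement can form the membrane attack complex, a pore in the cell membrane. The other set received 50% heat-inactivated human serum for 4 hours, in which heating has destroyed complement activity. Both treatments were given to confluent cells of the same line on porous culture inserts, and polyadenylated RNA of 3 libraries per treatment was sequenced. Every replicate comes from 1 cell line, and whether the replicates were grown apart is not in the labels, so p-values reflect only library-to-library spread, which could be technical. No sample had complement blocked in another way, so active complement and other serum factors changed by heating cannot be told apart.

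Annexins are proteins that bind to acidic phospholipids when calcium is present. When a pore or a tear lets calcium into a cell, annexins move from the cytosol to the damaged membrane, where they help to seal, fold or shed it. S100A10 and S100A11 are small proteins of the S100 family that bind annexins and join them into larger complexes. S100A10 pairs with ANXA2, in a complex that also holds plasminogen at the cell surface, and S100A11 pairs with ANXA1 and ANXA2.

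The values are FPKM, fragments scaled for transcript length and library depth, so levels of different genes can be compared. Depth read from the lowest values lay between 14700000 and 17900000 fragments in replicates 2 and 3 of both treatments, and about 14400000 (normal serum) and 15600000 (heat-inactivated serum) in the replicate 1 libraries, where the reading is less certain. At this depth ANXA2 rested on about 49100 to 88400 fragments per library and ANXA3, at the low end, on about 507 to 835. The replicate 1 libraries of both treatments deviated together from their treatment means (r = 0.193 across 11818 genes). Marker genes did not follow the label closely. Of 10 endothelial markers 7 had a mean below 1 FPKM. The 3 tested, PECAM1, ENG and ESAM, were higher in normal serum (limma adjusted p under 0.05), beside 27.8% of all genes tested. PECAM1 averaged 7.95 FPKM in normal serum, against 3.35 in heat-inactivated serum, and ESAM 4.91 against 2.63. The 10 together summed to between 82.6 and 94.1 FPKM in normal serum, against 67.5 to 69.0 FPKM in heat-inactivated serum. ENG alone stood at 67.3 to 79.7 FPKM in normal serum, against 61.0 to 61.5 FPKM in heat-inactivated serum. Among the 7 low ones, VWF averaged 1.05 FPKM in normal serum, against 0.172 in heat-inactivated serum. KDR went the other way, at 0.105 against 0.370 FPKM. CDH5 was listed at 0 in the heat-inactivated serum libraries and at no more than 0.0185 FPKM in normal serum. Mural and fibroblast markers summed to between 3160.0 and 3299 FPKM in normal serum, against 6703 to 7253 FPKM in heat-inactivated serum. Of these 8 of 8 were lower, beside 26.1% of all genes tested. The only epithelial marker tested, CDH1, was lower, at a mean of 2.03 FPKM in normal serum, against 5.54 in heat-inactivated serum. The only retinal pigment epithelium marker tested, PMEL, was not past the threshold, at 39.0 against 38.3 FPKM. The leukocyte marker PTPRC stayed at or below 0.0509 FPKM and the 3 leukocyte markers found summed to between 0.888 and 1.52 FPKM in normal serum, against 1.22 to 1.64 FPKM in heat-inactivated serum. The part of these markers in the results below was not tested, and in bulk RNA fewer cells of a type and less RNA per cell cannot be told apart.

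Normal serum split the genes into 2 directions. ANXA2, ANXA5, S100A10 and S100A11 rose by 1.33-fold to 1.79-fold in mean FPKM, and ANXA4, ANXA6, ANXA7 and ANXA11 fell to between 0.671 and 0.768 of their heat-inactivated serum means. ANXA1 and ANXA3 did not pass the test. Thus 4 of 10 were higher and 4 lower (limma on log2(FPKM + 1), Benjamini-Hochberg adjusted p under 0.05 over all genes). Of all 11818 genes tested 54.0% were called, 27.8% higher and 26.1% lower. The members' median log2 change was -0.07, against 0.01 over all genes tested, and their median change in size was 0.42, against 0.31. Groups did not overlap for the 8 called genes, as was the case for 62.6% of all genes tested, 32.1% with normal serum above and 30.5% with it below.

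**Figure D1:**
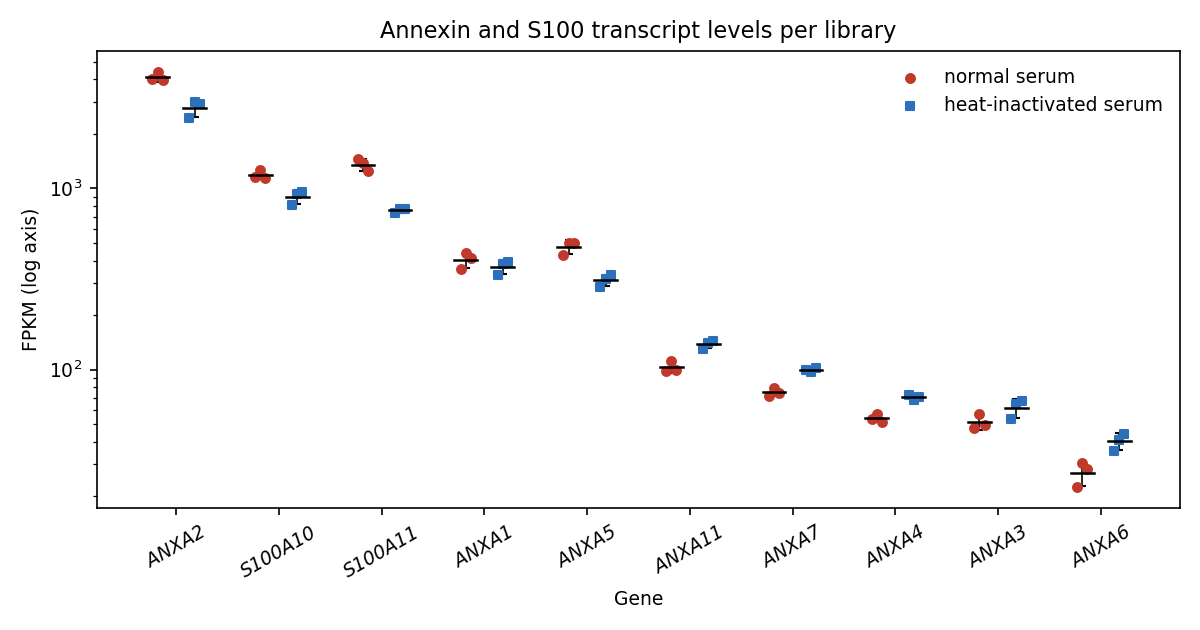
FPKM of each annexin and S100 gene (log axis) in the 3 normal serum libraries (red circles, left) and the 3 heat-inactivated serum libraries (blue squares, right), with mean and SD as black bars. The groups are separate for 8 genes and overlap for ANXA1 and ANXA3.

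ANXA2, which gathers acidic phospholipids and actin at membrane wounds and is the partner of S100A10, was the most abundant of the 10 in both treatments. It stood at 4041, 4424 and 3959 FPKM in normal serum replicates 1 to 3, against 2445, 3004 and 2929 FPKM in heat-inactivated serum. Every normal serum library was above every heat-inactivated serum library. The mean was 4142 ± 248 FPKM in normal serum and 2793 ± 303 FPKM in heat-inactivated serum (SD, n = 3 each), a 1.48-fold rise (log2 change 0.57, SE 0.09, limma adjusted p = 0.00183). By mean FPKM it ranked number 37 of all genes in normal serum and number 67 in heat-inactivated serum. It made up 78.9%, 77.6% and 76.6% of the FPKM of the 8 annexins in normal serum, against 70.8%, 73.0% and 71.8% in heat-inactivated serum. The 8 annexins together thus followed ANXA2, at 5332 ± 320 FPKM in normal serum and 3883 ± 370 FPKM in heat-inactivated serum. The 5 least abundant annexins together stood at 310.1 ± 22.2 FPKM in normal serum and 409 ± 18.1 FPKM in heat-inactivated serum.

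S100A10, the S100 protein that holds ANXA2 molecules together at the plasma membrane without needing calcium itself, rose as well. It stood at 1157, 1272 and 1148 FPKM in normal serum, against 806, 935 and 951 FPKM in heat-inactivated serum, with no overlap. The rise was 1.33-fold (log2 change 0.41, SE 0.08, limma adjusted p = 0.00446). The call ended with quantile normalization (log2 change 0.15, adjusted p = 0.115), and its adjusted p ranged from 0.00163 to 0.115 over 19 alternatives.

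S100A11, which binds the amino-terminal tails of ANXA1 and ANXA2 when calcium is present, had the largest log2 change of the 10 as deposited (0.84), whereas ANXA6 changed more in size after both rescalings (-0.71 against 0.70 for S100A11, and -0.73 against 0.67) and, with ANXA11 and ANXA7, under quantile normalization. It stood at 1446, 1379.8 and 1241 FPKM in normal serum, against 729, 767 and 772 FPKM in heat-inactivated serum. The lowest normal serum library was far above the highest heat-inactivated serum library. The mean was 1356 ± 105 FPKM in normal serum and 756 ± 23.5 FPKM in heat-inactivated serum (SD, n = 3 each), a 1.79-fold rise (log2 change 0.84, SE 0.07, limma adjusted p = 9.68e-05). Of all genes tested 94.4% had a lower log2 change.

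ANXA5, which assembles into lattices on membranes with exposed phosphatidylserine and is widely used to stain dying cells, was the other annexin that rose. It stood at 430.3, 503 and 499 FPKM in normal serum, against 287, 318 and 331 FPKM in heat-inactivated serum, again without overlap. The rise was 1.53-fold (log2 change 0.61, SE 0.08, limma adjusted p = 8.37e-04).

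ANXA1, the partner of S100A11 and a protein known for restraining inflammation through formyl peptide receptors, did not pass the test. It stood at 360.1, 439 and 411 FPKM in normal serum, against 333, 381 and 393 FPKM in heat-inactivated serum, and the groups overlapped. Its log2 change was 0.13 (95% interval -0.10 to 0.35, limma adjusted p = 0.293). It was called higher in 1 of 19 alternatives, where replicate 1 was modelled apart (adjusted p = 0.0498), and its sign turned after scaling to equal total FPKM (log2 change -0.02).

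**Figure D2:**
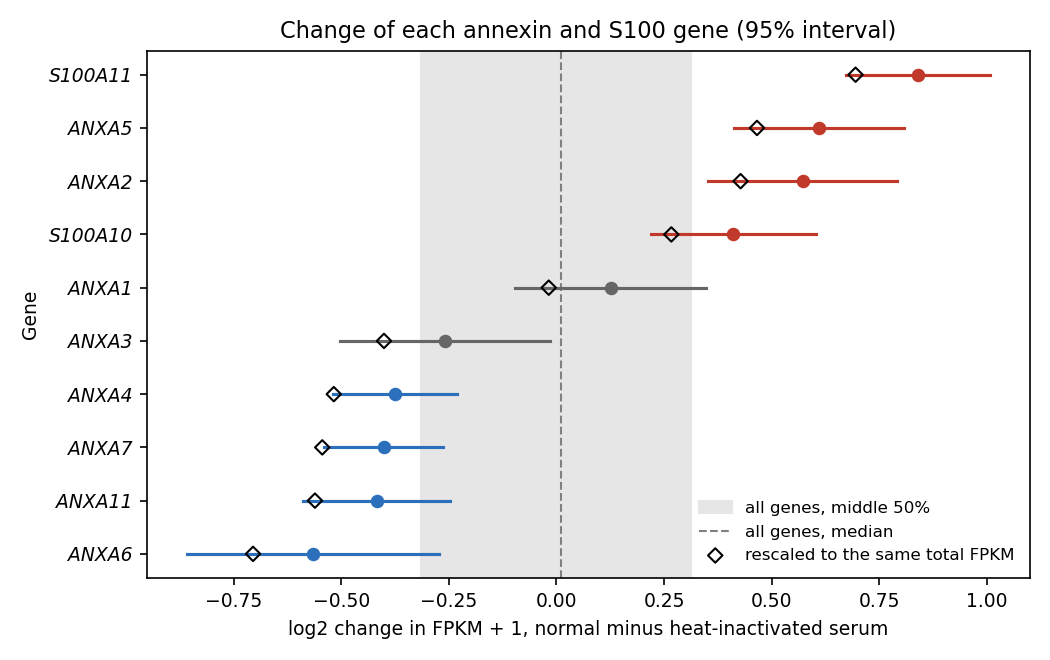
log2 change of FPKM + 1 (normal minus heat-inactivated serum) with its 95% interval for each gene (red called higher, blue called lower, grey not past the threshold), beside the median and the middle 50% of all genes tested. Open diamonds give the change after rescaling every library to the same total FPKM, which moves each gene to the left and turns the sign of ANXA1 alone.

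The annexins that fell all stood below ANXA1 in level. ANXA11, which binds PDCD6 and S100A6 and ties RNA granules to lysosomes, stood at 97.7, 112 and 99.4 FPKM in normal serum, against 130.5, 140.0 and 143 FPKM in heat-inactivated serum. The groups did not overlap (log2 change -0.42, SE 0.07, limma adjusted p = 0.00237). ANXA7, which also binds PDCD6 and has been tied to membrane shedding, stood at 71.5, 79.0 and 74.5 FPKM in normal serum, against 98.8, 97.3 and 102 FPKM in heat-inactivated serum. All normal serum libraries were lower (log2 change -0.40, SE 0.06, limma adjusted p = 0.00111). ANXA4, known for bending membrane edges, stood at 53.2, 57.0 and 51.5 FPKM in normal serum, against 72.1, 68.1 and 70.4 FPKM in heat-inactivated serum. It too was lower in each normal serum library than in any heat-inactivated serum library (log2 change -0.38, SE 0.06, limma adjusted p = 0.00181).

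ANXA6, the annexin with a doubled core that constricts wound edges and forms a repair cap in muscle, was the least abundant of the 10. It stood at 22.3, 30.3 and 28.1 FPKM in normal serum, against 35.7, 40.6 and 44.2 FPKM in heat-inactivated serum, and the groups were separate. Its fall was the largest of the 4 in log2 change and had the widest interval (log2 change -0.57, 95% interval -0.86 to -0.27, limma adjusted p = 0.00703). ANXA3, whose role is less clear, stood at 47.6, 56.6 and 49.4 FPKM in normal serum, against 53.3, 64.4 and 67.0 FPKM in heat-inactivated serum. The groups overlapped through heat-inactivated serum replicate 1, and ANXA3 was not past the threshold (log2 change -0.26, limma adjusted p = 0.0699). It was called lower in 9 of 19 alternatives, among them the fit without heat-inactivated serum replicate 1 (adjusted p = 0.0161), the fit without normal serum replicate 2 (adjusted p = 0.0447), and the fit on replicates 2 and 3 alone (adjusted p = 0.0296).

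Scaling bears on these numbers. Total FPKM was 1010695, 1016474 and 980877 in normal serum replicates 1 to 3, against 852828, 867794 and 1007949 in heat-inactivated serum. In transcripts of at least 300 bases it was 889349, 891786 and 848315 in normal serum, against 775915, 780423 and 776565 in heat-inactivated serum. Rescaling every library to the same total FPKM moved the median log2 change of all genes to -0.12, and leaving out transcripts under 300 bases before doing so moved it to -0.15. The share of calls that were higher was 51.6% as deposited, 34.7% after the first rescaling and 32.6% after the second. Relative to the median of all genes, ANXA2 stood at 0.56 as deposited and 0.55 after either rescaling. S100A11 stood at 0.83, 0.81 and 0.82, and ANXA6 at -0.58, -0.59 and -0.58. Rescaling divides each library by 1 factor, so these distances could hardly change and are no check of the calls. Quantile normalization, which can change them, gave 0.44 for ANXA2, 0.60 for S100A11 and -0.66 for ANXA6. With it ANXA5 went from 0.60 to 0.37 and S100A10 from 0.40 to 0.17. The 4 higher and 4 lower calls held under both rescalings, and ANXA3 joined the lower ones (adjusted p = 0.0104 and 0.00366). After the first rescaling 1952 of all 11837 genes were called higher and 3672 lower. After the second 2197 of 11468 were called higher and 4534 lower. Within replicates 2 and 3 alone the same 8 genes were called, and ANXA3 with them, beside 5555 of all 11819 genes. Replicate 1 gives a single library of each treatment and so no test.

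Lengths differ between the genes that rose and those that fell. The most abundant transcripts of S100A11, S100A10, ANXA5 and ANXA2 have 598, 651, 954 and 1436 bases, and those of ANXA6, ANXA7, ANXA4 and ANXA11 have 1796, 2027, 2048 and 2252 bases. ANXA3, with 957 bases, did not rise. Over all genes the median log2 change was 0.07 for transcripts of 300 to 1000 bases and -0.06 for those of 2500 bases or more. With the trend over length removed, a setting chosen after seeing the data, the 8 calls held, beside 6348 of all 11818 genes called. The log2 changes were then 0.76 for S100A11, 0.34 for S100A10, 0.57 for ANXA5 and 0.55 for ANXA2. ANXA3 was called lower in that setting (limma adjusted p = 0.0298).

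The order of levels changed in 2 places. S100A11 was above S100A10 in 3 of 3 normal serum libraries, whereas S100A10 was above S100A11 in 3 of 3 heat-inactivated serum libraries. ANXA5 was above ANXA1 in 3 of 3 normal serum libraries, and ANXA1 was above ANXA5 in 3 of 3 heat-inactivated serum libraries. In normal serum the ranges of S100A11 and S100A10, of ANXA5 and ANXA1, and of ANXA4 and ANXA3 overlapped. The other neighbours in the order were separate, as were all neighbours in heat-inactivated serum.

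Because library scaling cancels in a ratio of genes of 1 library, the S100 partners were also set against their annexins. Effects of transcript length do not cancel, and their part in the ratios was not tested. The main transcripts have 651 bases for S100A10 and 1436 for ANXA2, and 598 for S100A11 against 1506 and 1330 for ANXA1. There were 0.286, 0.288 and 0.290 FPKM of S100A10 per FPKM of ANXA2 in normal serum, against 0.330, 0.311 and 0.325 in heat-inactivated serum. All normal serum ratios were lower (mean 0.288 ± 0.00178 in normal serum and 0.322 ± 0.00946 in heat-inactivated serum, SD, n = 3 each). The log2 ratio thus differed by -0.16 (two-sided exact permutation test, p = 0.10, the smallest that 3 against 3 libraries allow). The ratio of S100A11 to ANXA1 moved the other way, at 4.02, 3.15 and 3.02 in normal serum, against 2.19, 2.01 and 1.96 in heat-inactivated serum. This difference of 0.71 on the log2 scale reached the same smallest exact p of 0.10, and normal serum replicate 1 lay highest.

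**Figure D3:**
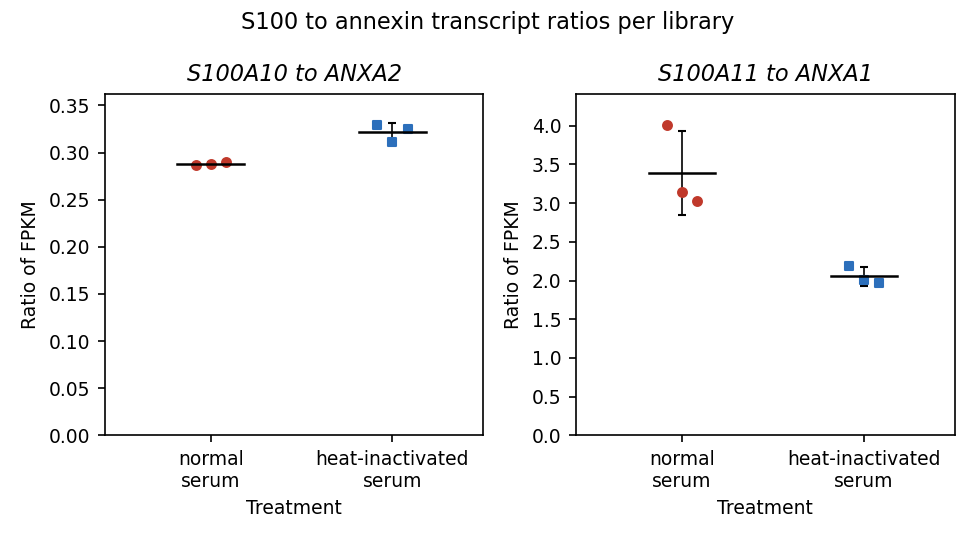
Ratio of S100A10 to ANXA2 FPKM (left panel) and of S100A11 to ANXA1 FPKM (right panel) per library, for normal serum (red circles) and heat-inactivated serum (blue squares), with mean and SD as black bars. The first ratio is lower and the second higher in each normal serum library than in any heat-inactivated serum library.

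Transcript models show where these changes lie. Of the 24 annotated transcripts of the 10 genes, 18 passed the filter of a mean of at least 1 FPKM and 6 were not tested. Of these 18, 12 (66.7%) were called when each was tested on its own, 4 higher and 8 lower. Of all 15719 transcripts tested 39.6% were called, 21.0% higher and 18.6% lower. Of the 24, 3 were listed at 0 in all libraries. ANXA2, S100A10 and S100A11 each rest on 1 transcript, which holds at least 98.7% of the gene's FPKM in every library. The 651-base transcript of S100A10 lost its call with libraries scaled to equal total FPKM (adjusted p = 0.0501) and under quantile normalization (adjusted p = 0.237). It kept the call when transcripts under 300 bases were left out before rescaling (limma adjusted p = 0.0396). For S100A11 the other models are annotated on chromosomes 4 and 3 of the authors' table, away from the main one on chromosome 1, with 0.518 FPKM in 1 library and 0 elsewhere. Near-identical copies of ANXA2, S100A10 and S100A11 are known in primate genomes, and the sources used here do not give how shared fragments were assigned.

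The models of 1 gene share most of their sequence, so their split is an estimate of the authors' software. ANXA11 had transcripts of 2252 and 1733 bases, and both were lower in normal serum. The shorter stood at 23.3, 28.9 and 29.1 FPKM in normal serum, against 41.0, 42.9 and 48.2 FPKM in heat-inactivated serum (log2 change -0.68, limma adjusted p = 0.00433). The longer changed less, at 74.4, 83.2 and 70.3 FPKM in normal serum, against 89.5, 97.1 and 95.02 FPKM in heat-inactivated serum (log2 change -0.30, limma adjusted p = 0.0221). Its call was lost in replicates 2 and 3 on their own (adjusted p = 0.0683), on dropping normal serum replicate 1 (adjusted p = 0.0606) or 3 (adjusted p = 0.0569), and on dropping heat-inactivated serum replicate 2 (adjusted p = 0.0720) or 3 (adjusted p = 0.0697). The longer transcript made up 76.1%, 74.2% and 70.7% of ANXA11 in normal serum, against 68.6%, 69.4% and 66.4% in heat-inactivated serum, with no overlap. The difference between the transcripts was not tested.

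Of 4 ANXA7 transcripts 3 were called lower. The main one of 2027 bases stood at 57.0, 57.7 and 55.6 FPKM in normal serum, against 68.6, 71.6 and 74.4 FPKM in heat-inactivated serum (log2 change -0.33, limma adjusted p = 0.00468). One of 488 bases rested on only about 5 to 22 fragments per library, and its call (limma adjusted p = 0.0175) was lost when heat-inactivated serum replicate 1 (adjusted p = 0.0525) or 2 (adjusted p = 0.0566) was dropped. The 3 ANXA6 transcripts with fragments all had separate groups, and those of 1796 and 2461 bases were called (log2 changes -0.54 and -0.27, limma adjusted p = 0.0110 and 0.0274). The call of the 2461-base transcript was lost in replicates 2 and 3 on their own (adjusted p = 0.0956). It was also lost on dropping each of 5 libraries in turn, normal serum replicates 2 and 3 and heat-inactivated serum replicates 1, 2 and 3 (adjusted p from 0.0562 to 0.0902). ANXA6 of 2004 bases was not past the threshold (limma adjusted p = 0.113, and 0.0353 in replicates 2 and 3 on their own), with normal serum replicate 1 lowest at 4.38 FPKM. ANXA1 was split between transcripts of 1506 and 1330 bases of like level, and neither passed the test (limma adjusted p = 0.720 and 0.292). With replicate 1 modelled apart, the 1330-base transcript of ANXA1 was at the threshold (adjusted p = 0.04996) and the 2004-base transcript of ANXA6 was called (adjusted p = 0.0103).

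**Figure D4:**
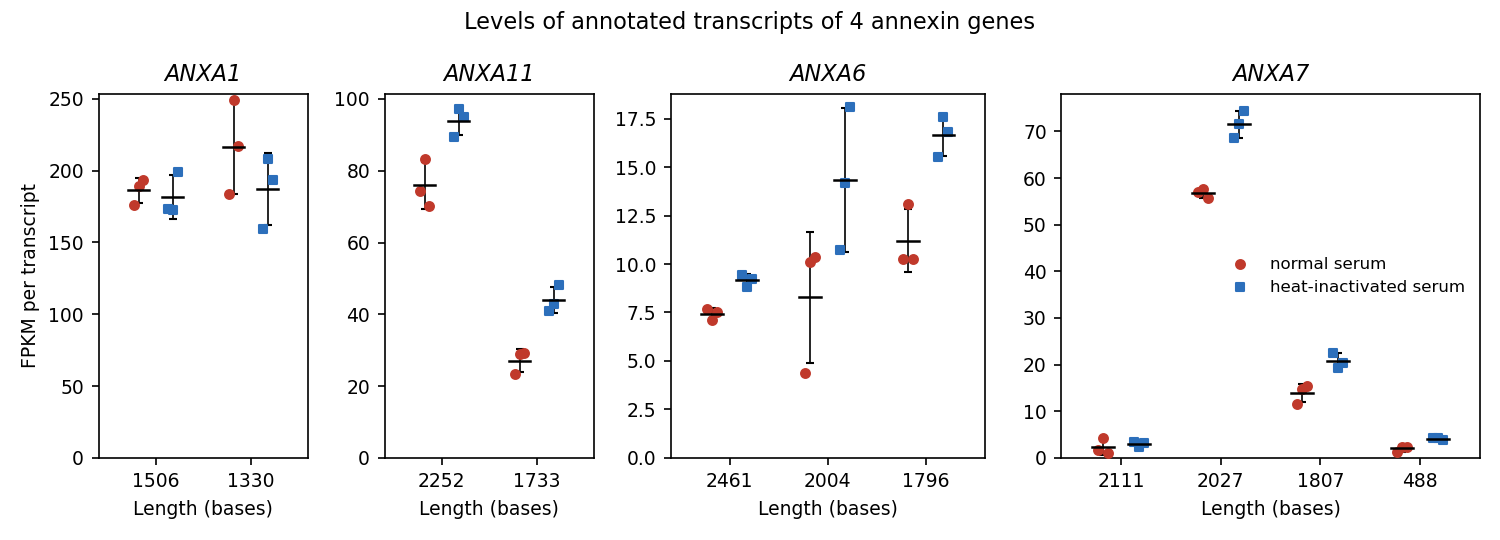
FPKM of single annotated transcripts of ANXA1, ANXA11, ANXA6 and ANXA7, labelled by length in bases, in normal serum (red circles, left) and heat-inactivated serum (blue squares, right), with mean and SD as black bars. Both ANXA11 transcripts and the main ANXA7 transcript are lower in each normal serum library, and the 2 ANXA1 transcripts overlap.

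Among these genes, the smallest q-value in the authors' deposited table, 2.23e-04, belonged to the main transcripts of ANXA2, ANXA5, S100A10 and S100A11. The authors' deposited table gives log2 changes of 0.57, 0.61, 0.41 and 0.84 for them. With ANXA4 (q = 4.28e-04), 5 transcripts carried the authors' mark for q in their deposited table, and 0 carried all of its marks, since none of these 5 reached its minimum fold change.

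Of 6 other annexins looked for by symbol, ANXA9, ANXA10 and ANXA13 had means over the 6 libraries below 1 FPKM and were not tested, and ANXA8, ANXA8L1 and ANXA8L2 were not matched and are not analysed here. ANXA9 stood at 0.345, 0.676 and 0.643 FPKM in normal serum, against 1.07, 1.48 and 1.17 FPKM in heat-inactivated serum. A gene without a symbol, described in the table as an annexin and with identifier ENSMMUG00000013446, was at 47.4 ± 4.16 FPKM in normal serum and 55.2 ± 8.82 FPKM in heat-inactivated serum (limma adjusted p = 0.193), above ANXA6 in mean level in both treatments. It was chosen after its values were seen.

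Of 17 other S100 genes 15 were in the table and 6 were tested, of which 3 were higher and 1 lower. Beside this list and each list below, 27.8% of all genes tested were higher and 26.1% lower. The calcium-binding proteins S100A4 and S100A6 were among the abundant ones. S100A4, which binds non-muscle myosin and is linked to cell motility, stood at 781, 833 and 749 FPKM in normal serum, against 579, 684 and 656 FPKM in heat-inactivated serum (log2 change 0.30, limma adjusted p = 0.0145). That call did not survive either rescaling (adjusted p = 0.205 and 0.131) or quantile normalization (adjusted p = 0.534). It was also lost in replicates 2 and 3 on their own (adjusted p = 0.0506) and without normal serum replicate 2 (adjusted p = 0.0510). S100A6, the S100 partner of ANXA11 and named after its values were seen, averaged 1509 ± 115 FPKM in normal serum and 1331 ± 39.0 FPKM in heat-inactivated serum (limma adjusted p = 0.0682), and it was called without normal serum replicate 3 (adjusted p = 0.0166). S100A2 rose 1.65-fold (limma adjusted p = 0.00271), and S100A1, at a low level, fell to 0.553 ± 0.283 FPKM in normal serum, against 2.14 ± 0.939 FPKM in heat-inactivated serum (limma adjusted p = 0.0122). S100A3 was at the threshold (log2 change 0.25, limma adjusted p = 0.0443), and 12 of 19 alternatives ended its call. Among them were the fits that dropped normal serum replicate 1 or 2 or any heat-inactivated serum library (adjusted p from 0.0667 to 0.125). A further 7 S100 genes, S100A8 and S100A9 among them, were listed at 0 in all libraries.

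Of 11 binding partners and receptors 8 were tested, of which 4 were higher and 1 lower. PLA2G4A, the cytosolic phospholipase that releases arachidonic acid and is inhibited by ANXA1, stood at 17.6, 22.1 and 21.5 FPKM in normal serum, against 3.33, 3.02 and 2.68 FPKM in heat-inactivated serum. All normal serum libraries were far higher, and the rise was 6.79-fold (limma adjusted p = 5.91e-06). RASA1, a Ras inhibitor that binds ANXA6, rose 1.52-fold (limma adjusted p = 0.00130). DLC1, a tumour suppressor that binds S100A10, rose 1.34-fold (limma adjusted p = 0.00442), a call that ended after both rescalings (adjusted p = 0.101 and 0.0569) and with its most abundant transcript in place of the sum (adjusted p = 0.131). TGM2, a transglutaminase that crosslinks S100 and annexin proteins, fell to 111 ± 5.59 FPKM in normal serum, against 266 ± 22.2 FPKM in heat-inactivated serum (limma adjusted p = 2.29e-05). AHNAK, the giant scaffold of the ANXA2 and S100A10 complex and named after its values were seen, averaged 154 ± 36.5 FPKM in normal serum and 171 ± 23.5 FPKM in heat-inactivated serum (limma adjusted p = 0.454).

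The plasminogen system, which the ANXA2 and S100A10 complex concentrates at the cell surface, had 4 of 5 genes tested, with 3 higher and 1 lower. PLAUR, the urokinase receptor, stood at 221, 226 and 223 FPKM in normal serum, against 86.6, 82.9 and 81.1 FPKM in heat-inactivated serum (2.67-fold, limma adjusted p = 2.85e-06). PLAU, urokinase, rose 2.18-fold (limma adjusted p = 2.27e-05). PLAT, tissue plasminogen activator and a ligand of the ANXA2 complex, rose 1.40-fold (limma adjusted p = 0.00138), and its call ended with quantile normalization (adjusted p = 0.123). CTSB, the protease cathepsin B, fell to 181 ± 7.23 FPKM in normal serum, against 239 ± 8.81 FPKM in heat-inactivated serum (limma adjusted p = 0.00101). PLG itself was listed at 0 in all libraries.

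Other membrane repair genes also went in both directions, as did all genes tested (27.8% higher and 26.1% lower). Of 24 listed 18 were tested, with 7 higher, 6 lower and 5 not past the threshold. The calpain subunits CAPN2 and CAPNS1, calcium-activated proteases that trim cortical proteins at wounds, rose 1.39-fold and 1.40-fold (limma adjusted p = 5.62e-04 and 0.00111). CAPN1, the catalytic subunit of the other main calpain, fell to 0.844 of its heat-inactivated serum mean (limma adjusted p = 0.0108). EHD1, a membrane-remodelling ATPase, rose 1.48-fold (limma adjusted p = 4.05e-04), and its relative EHD2 fell to 0.684 of its heat-inactivated serum mean (limma adjusted p = 0.00165). CAPN1 and EHD2 were named after their values were seen. The ferlin MYOF fell to 42.9 ± 4.26 FPKM in normal serum, against 71.9 ± 2.46 FPKM in heat-inactivated serum (limma adjusted p = 2.83e-04). Over the 5 lists, 17 of 36 tested genes were higher and 9 lower as deposited, beside 27.8% and 26.1% of all genes. After rescaling to the same total FPKM 19 list genes were called, against 26 as deposited, beside 5624 of all 11837 genes. Leaving out transcripts under 300 bases before rescaling gave 20, beside 6731 of 11468. The median log2 change was 0.27 for the other S100 genes, 0.24 for the binding partners, 0.80 for the plasminogen genes and 0.11 for the repair genes.

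**Figure D5:**
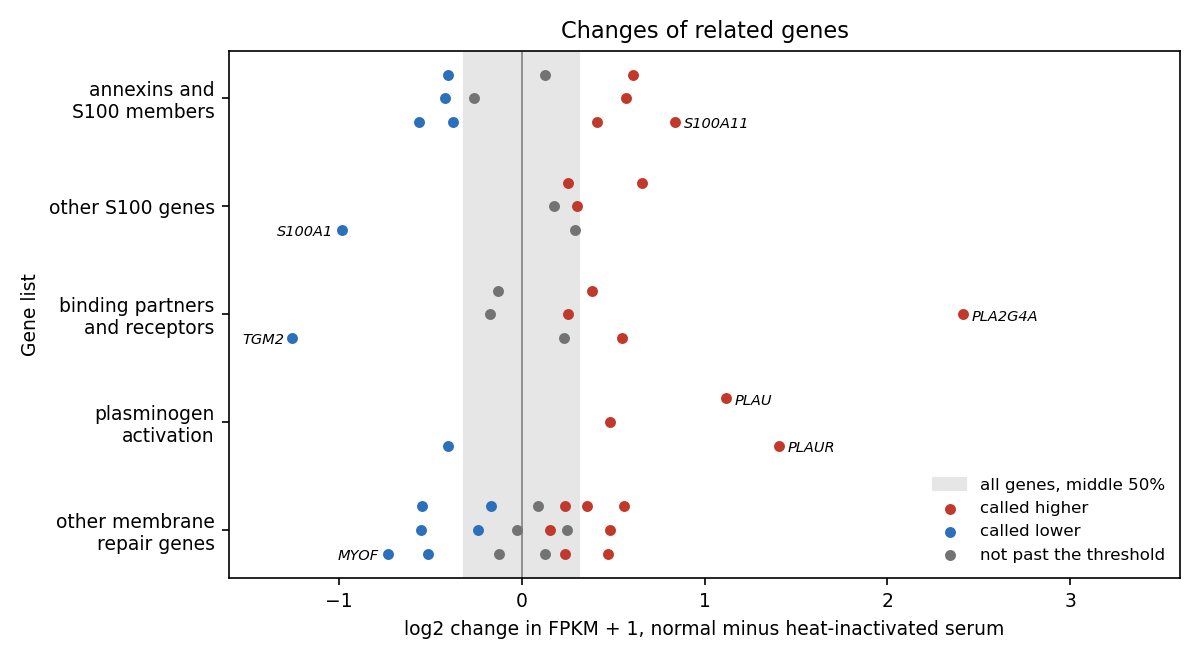
log2 change of FPKM + 1 (normal minus heat-inactivated serum) for each tested gene of the annexin and S100 members and of 4 related lists, red called higher, blue called lower, grey not past the threshold, with the middle 50% of all genes as a grey band. PLA2G4A and PLAUR lie farthest to the right, and TGM2 and S100A1 farthest to the left.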

How the data were processed

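Polyadenylated RNA of 3 normal serum and 3 heat-inactivated serum libraries was measured. The deposited table holds FPKM per transcript and library, made by the authors with TopHat2 2.0.7, Cufflinks 2.1.1 and Cuffdiff 2.1.1 per the submitters' processing notes, plus transcript lengths in bases. A genome build was not given in the sources used here. Log2 fold changes with their p-value or q-value, made by the authors and deposited, were used only where named. FPKM were summed per symbol. Symbols were missing for 7008 identifiers and were filled in for 256 with a gene name table.

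Genes averaging 1 FPKM or more were tested as log2(FPKM + 1), on which scale folds of low genes are understated, with limma 3.58.1 in R 4.3.3 (trended empirical Bayes, Benjamini-Hochberg over all genes). Each fold is a ratio of mean FPKM, and errors are SD. No sequences are printed. Depth was read from single-transcript genes of 1000 to 5000 bases by the value of 1 fragment. Low values lay within 0.1 of a whole fragment in 100% of cases for replicates 2 and 3, against 37.3% (normal serum) and 40.2% (heat-inactivated serum) in replicate 1 and 20% by chance. The test was checked on simulated data, where it recovered 18% of 1.25-fold, 66% of 1.5-fold and 87.6% of 2-fold changes. Of its calls there 4.94% were false. Small changes can thus be missed. The simulation changed few genes and had no deviation shared between libraries, unlike these data. A result for 1 gene of the lists is not reported here. The members and lists were chosen with earlier results of these data known. Genes named beside the members are the called genes lowest in adjusted p, at most 4 for each list, all tested genes of lists of 6 or fewer, and those marked as chosen later. Alternatives varied pseudocount, filter, scaling, variance model, summing, replicate terms and libraries.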

Additional observations from a re-analysis of the deposited data

How the results depend on the processing

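Over 19 alternatives, the calls and directions of ANXA2, ANXA4, ANXA5, ANXA6, ANXA7, ANXA11 and S100A11 held in each, and the number of members called lay between 8 and 10. For S100A10 the call ended with quantile normalization alone. Some signs turned, on the log2 scale. ANXA1 stood at -0.018 after rescaling to the same total FPKM, -0.045 when transcripts under 300 bases were left out first and -0.14 with quantile normalization. Its transcript of 1506 bases stood at -0.11, -0.13 and -0.22 in the same 3 settings, and that of 1330 bases at -0.052 with quantile normalization. S100A6 stood at -0.10 with quantile normalization, and AHNAK at 0.019 with the length trend removed, a setting chosen after seeing the data. Leaving out 1 library at a time, AHNAK ranged from -0.31 to 0.034, with the positive value without normal serum replicate 1. Of all genes, 3291 were called higher as deposited and 1952 after rescaling to the same total FPKM. Leaving out 1 library at a time gave between 5455 and 5872 called genes, between 8 and 9 called members, between 9 and 11 called member transcripts and between 20 and 26 called list genes. Same-numbered libraries correlated at 0.193, 0.0333 and 0.00593 for replicates 1, 2 and 3, against -0.134 to 0.106 for libraries of different number. The numbers were thus not taken to pair the samples. The main model has no term for replicate 1, although its libraries stood apart in both treatments. With such a term all 10 members and 7063 of 11818 genes were called, ANXA1 only just (limma adjusted p = 0.0498) and ANXA3 at 0.0167. With the number as a replicate block, 9 members and 6775 genes were called, against 8 and 6381 without it, and the block added calls for the ANXA1 transcript of 1330 bases (limma adjusted p = 0.0256), the ANXA6 transcript of 2004 bases (0.0194) and ANXA3 (0.0266). In both ratios the direction held in each alternative run.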
